A study of Homo sapiens with 3 samples.

Results

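The genes ALB, AFP, APOA1, APOA2, APOC3, TTR, SERPINA1, AHSG, AMBP and CST1 were followed across 3 single-cell libraries of blood vessel organoids. They are 10 of the 33538 genes in the files, found by symbol, and were chosen because their RNA was already known to differ between these libraries, so their levels are given as a description and without a test. A cell was set apart when ALB, AFP, APOA1, APOA2 and TTR together made up at least 1% of its RNA molecules, counted as unique molecular identifiers (UMIs). This held for 152 of the 22208 cells kept, and the values that chose those cells support nothing further. The organoids were grown from human embryonic stem cells of the established line H1 and were taken at day 45; in every group, controls included, PiggyBac had placed NEUROD1-P2A-GFP in the genome under doxycycline control. One group had no induction, one had 15 days and one had 45 days of doxycycline at 1 µg/ml, and the labels do not say which 15 days. Every group received BDNF and NT-3 from day 15, and each group is 1 library of 5 to 6 pooled organoids (papain, 20 U/ml, 30 min; 40 µm filter).

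Hepatocytes secrete most plasma proteins, and in the embryo the visceral endoderm of the yolk sac makes many of the same ones before the liver takes over. ALB encodes albumin, the main carrier protein of plasma, and AFP encodes alpha-fetoprotein, its fetal relative. The apolipoproteins build lipoprotein particles: APOA1 and APOA2 are the main proteins of high-density lipoprotein, and APOC3 restrains lipoprotein lipase. TTR (transthyretin) carries thyroid hormone and the retinol-binding protein. SERPINA1 (alpha-1-antitrypsin) inhibits neutrophil elastase, AMBP is cleaved into alpha-1-microglobulin and bikunin, a protease inhibitor, and AHSG (fetuin-A) keeps calcium phosphate in solution. CST1 encodes cystatin SN, a cysteine protease inhibitor best known from saliva and not from liver. Hepatic transcription factors such as HNF1, HNF4, C/EBP and FOXA proteins are known to drive many of these genes.

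Some of the genes are neighbours in the genome (GRCh38, GENCODE 29). ALB lies at chr4:73397114-73421412 and AFP at chr4:73431138-73456174, both on the plus strand and 9726 bases apart. APOC3 lies at chr11:116829706-116833072 and APOA1 at chr11:116835751-116837950 on opposite strands, 2679 bases apart, with APOA4 as the next coding gene. CST1 lies at chr20:23747553-23751268 between its close paralogs CST4 and CST2, so reads of the 3 cystatins could be split between them. An antisense gene, APOA1-AS, overlaps APOA1.

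Promoters were read from RefSeq (GRCh38.p14), which matched 6 of the 10 genes, from 250 bases before to 50 bases after each start. The 4 below are shown because they hold the letters of 1 of a pair of sites long known in liver promoters. Capitals mark GTTAAT, an arm of the palindromic HNF1 site, or CAAAGTCCA, the core of the HNF4 site, here on the reverse strand.
ALB: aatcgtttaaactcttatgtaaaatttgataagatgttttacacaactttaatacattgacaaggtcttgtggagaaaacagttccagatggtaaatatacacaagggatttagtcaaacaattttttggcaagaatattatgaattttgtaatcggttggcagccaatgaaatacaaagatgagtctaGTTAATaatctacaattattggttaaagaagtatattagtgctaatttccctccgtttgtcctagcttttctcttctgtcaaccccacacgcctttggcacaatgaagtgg
AFP: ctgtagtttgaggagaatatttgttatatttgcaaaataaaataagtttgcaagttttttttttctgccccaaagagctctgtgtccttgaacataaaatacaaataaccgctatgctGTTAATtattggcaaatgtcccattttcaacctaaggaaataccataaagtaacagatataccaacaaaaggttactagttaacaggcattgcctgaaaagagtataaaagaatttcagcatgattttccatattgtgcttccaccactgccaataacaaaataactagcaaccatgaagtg
SERPINA1: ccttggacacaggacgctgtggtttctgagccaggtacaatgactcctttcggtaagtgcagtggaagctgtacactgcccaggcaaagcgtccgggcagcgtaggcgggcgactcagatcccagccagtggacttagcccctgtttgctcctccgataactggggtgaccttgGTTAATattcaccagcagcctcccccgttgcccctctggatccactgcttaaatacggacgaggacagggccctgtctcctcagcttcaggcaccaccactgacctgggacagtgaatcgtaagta
AHSG: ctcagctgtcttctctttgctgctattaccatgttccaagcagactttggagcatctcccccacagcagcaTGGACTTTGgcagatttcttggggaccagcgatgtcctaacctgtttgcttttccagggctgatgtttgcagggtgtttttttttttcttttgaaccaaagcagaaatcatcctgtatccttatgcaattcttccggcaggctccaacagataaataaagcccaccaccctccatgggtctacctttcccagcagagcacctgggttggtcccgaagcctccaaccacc
The windows are chr4:73404037-73404336 (ALB, plus strand), chr4:73435971-73436270 (AFP, plus strand), chr14:94388553-94388852 (SERPINA1, minus strand, the second of its starts in the table) and chr3:186612810-186613109 (AHSG, plus strand). The first base of GTTAAT stood at -61 from the start in ALB, at -132 in AFP and at -76 in SERPINA1. Searched on both strands, GTTAAT was in 6.88% of 35116 promoters of the same length and CAAAGTCCA, found at -179 in AHSG, was in 0.384%. TTNNGCAA, letters of a C/EBP site, was in the windows of ALB, AFP and AHSG and in 10.46% of all promoters. TGTTTAC, letters of a FOXA site, was in the window of APOA2 at -42 and in 3.42% of all promoters. A match describes the letters only.

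The files held 10232, 5962 and 10765 barcodes for no induction, 15 days and 45 days, with between 49488425 and 64171327 UMIs a library. After a filter (at least 1000 UMIs and 500 genes, at most 20% mitochondrial UMIs) and removal of likely doublets (4.24 to 7.72% of the cells that passed), 8230, 5078 and 8900 cells were kept, with median depths of 5136, 7278 and 5540 UMIs. Between 13 and 33 barcodes were shared by any pair of libraries, and 1 cell at or above the 1% limit carried a shared barcode. Clustering gave 28 clusters, of which 14 and 18 were endothelial-like, 7 and 20 mural-like, 16 mesenchymal-like, 11 basal epithelium-like, 23 haematopoietic-like, 19 and 22 neuron-like and 8, 15 and 17 cycling-like. Clusters 24 and 26, where most cells at or above the limit fell, were defined by these same genes and are given by number. Levels are summed UMIs scaled to a total of 1000000 (CPM). Because 1 read at the 3′ end stands for 1 molecule, they do not scale with gene length. Intervals in parentheses are exact 95% intervals (Poisson for levels, Clopper-Pearson for shares, conditional binomial for folds) that cover counting error only, since 1 library per group leaves no replicate check on any difference.

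Cells rich in these transcripts were rare, and most of them came from the library with 15 days of induction. They numbered 35 without induction (0.425%, 0.296 to 0.591), 116 at 15 days (2.28%, 1.89 to 2.73) and 1 at 45 days (0.0112%, 0.000284 to 0.0626). The share of the 5 genes in the cell just inside the limit and the cell just outside it was 1.013% and 0.923% without induction and 1.025% and 0.992% at 15 days, so the limit cuts a continuous range there. At 45 days these values were 3.27% and 0.254%. The range went far higher at 15 days, where 29 cells had over 10% of their UMIs in the 5 genes and the highest had 25.1%, against 1 such cell at 11.05% without induction. Most other cells carried little or nothing: none of the 5 genes was counted in 61.5% of the uninduced cells, in 34.2% of those at 15 days and in 97.3% of those at 45 days.

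**Figure D1:**
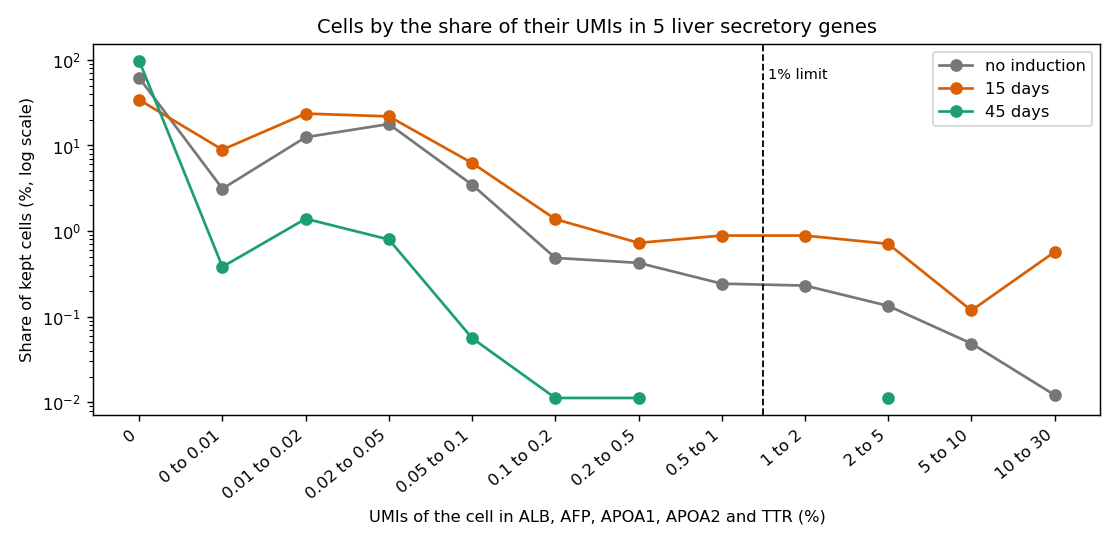
Share of kept cells (log scale) by the percentage of their UMIs in ALB, AFP, APOA1, APOA2 and TTR, for no induction (8230 cells), 15 days (5078) and 45 days (8900); the dashed line marks 1% and empty classes have no point. At 15 days the curve turns up again above 10%, where 29 cells lie, while at 45 days 97.3% of cells sit at 0 and 1 cell lies above 1%.

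A small number of cells held most of the RNA of the 10 genes. The cells at or above the limit made up 4.90% of all UMIs at 15 days but 88.3% of the UMIs of the 10 genes. Without induction they made up 0.711% of all UMIs and 71.2% of those of the 10 genes. The 5 cells with the most UMIs of a gene held 64.1% of all AFP UMIs and 78.5% of all AHSG UMIs without induction, and 68.6% of all ALB UMIs at 15 days. Over the 10 genes the share of the top 5 cells lay between 19.6% (APOA2) and 68.6% (ALB) at 15 days and between 23.5% (TTR) and 84.4% (AMBP) without induction, where 1754 of the 2660 TTR UMIs lay in cells below the limit. CST1 was the exception at 15 days, with 23.6% of its UMIs in cells at or above the limit.

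ALB separated the 15 day library from the uninduced one more than any other of the 10 genes, while its relative AFP did not stand out in that way. ALB had 19 UMIs in the uninduced library, 18649 at 15 days and 10 at 45 days. AFP had 6431, 37789 and 88 UMIs in the same order. The uninduced organoids thus held cells with much AFP and almost no ALB, and the 15 day library held both. At 15 days ALB was 1107-fold higher than without induction (709 to 1839) and AFP 6.63-fold higher (6.45 to 6.81).

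The apolipoproteins had similar ratios at 15 days. APOA1 was at 625.5 CPM at 15 days and 97.8 CPM without induction, a 6.40-fold difference (6.21 to 6.59). APOC3 was at 235.3 CPM at 15 days and 36.9 CPM without induction, 6.38-fold higher (6.07 to 6.70). APOA2, at 495.1 CPM at 15 days and 84.1 CPM without induction, was 5.89-fold higher (5.70 to 6.09), so the 3 ratios were close to each other. At 45 days APOA1 was at 3.99 CPM, APOA2 at 2.19 CPM and APOC3 at 0.588 CPM.

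Among the transport protein and the inhibitors, SERPINA1 kept the most RNA at 45 days and AMBP and CST1 stood out at 15 days. SERPINA1 was at 5.81 CPM at 45 days and 41.9 CPM without induction, 7.21-fold lower (6.41 to 8.14). TTR was at 0.202 CPM at 45 days and 52.6 CPM without induction, 260-fold lower (145 to 522). AHSG had 4 UMIs at 45 days, all in 1 cell, and 559 without induction. AMBP was at 74.5 CPM at 15 days and 2.53 CPM without induction, 29.4-fold higher (24.7 to 35.4), while AHSG, at 93.9 CPM at 15 days and 11.05 CPM without induction, was 8.50-fold higher (7.78 to 9.30). CST1 had 14 UMIs in the uninduced library, 6270 at 15 days and 0 at 45 days. A count of 0 at 45 days allows up to 0.0551 CPM, which puts CST1 at least 2536-fold lower at 45 days than at 15 days.

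Against all genes, counting those at 50 CPM or more in 1 of the libraries and at least 4-fold apart with 5 CPM added to each side, the 10 genes were all past the limit in the comparisons that chose them. At 15 days against no induction 10 of 10 were higher, where 1.55% of 3091 genes were higher and 0.453% lower. At 45 days against 15 days 10 of 10 were lower, where 0.55% of 3090 genes were lower and 0.0324% higher. At 45 days against no induction 4 of 10 were lower, AFP, APOA1, APOA2 and TTR, where 0.411% of 2918 genes were lower and 0.48% higher; these 4 were the only ones of the 10 that reached 50 CPM in either library. The median log2 ratio of the 10 genes, beside that of all genes counted, was -2.51 and 0.09 at 45 days against no induction, 2.78 and 0.16 at 15 days against no induction, and -5.77 and -0.05 at 45 days against 15 days. The last 2 of these comparisons share the 15 day library, and the first 2 share the uninduced one. Scaling by the median of ratios moved the median of all genes by 0.12 (log2) at 15 days against no induction.

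**Figure D2:**
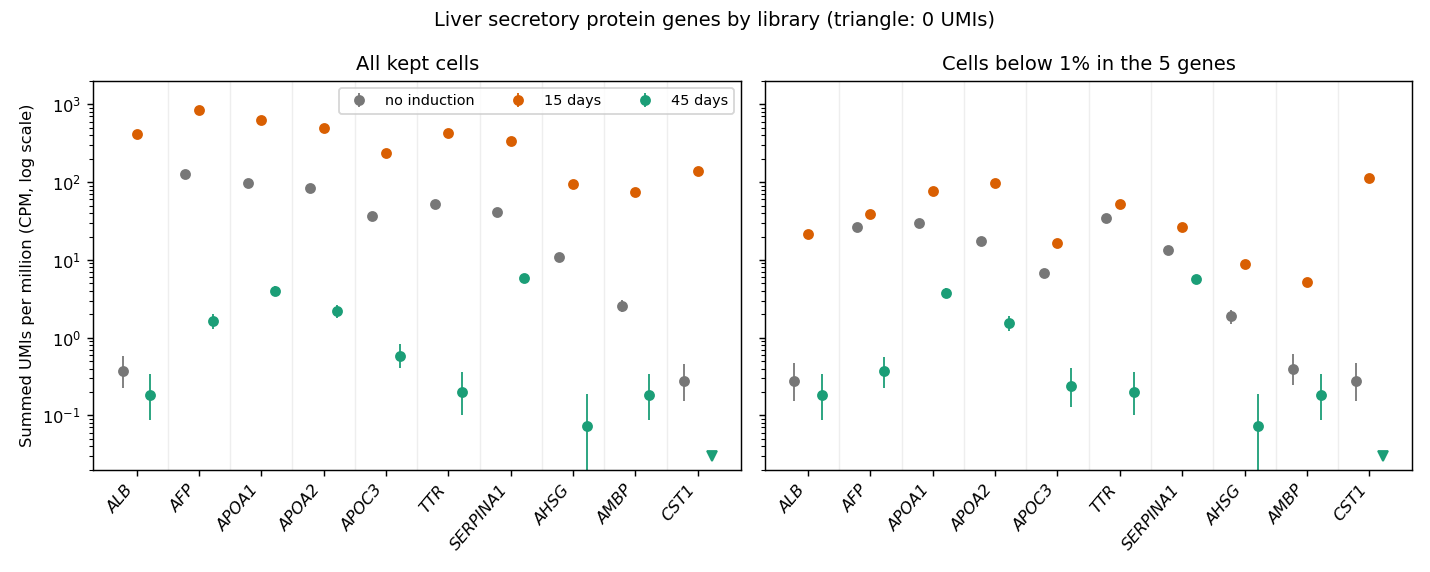
Summed level in CPM (log scale) of each of the 10 genes without induction (left point in each column), at 15 days and at 45 days, over all kept cells (left panel) and over the cells below 1% in the 5 genes (right panel); bars are exact 95% Poisson intervals and triangles mark 0 UMIs. ALB and CST1 separate the libraries most over all cells, and CST1 stays at 112 CPM at 15 days in the cells below 1%.

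At 15 days the cells at or above the limit fell into a pair of sets that used different genes of the family. Of the 116 cells, 33 were in cluster 24 and 82 in cluster 26, with 1 in cluster 23. Cluster 26 held 153 cells at 15 days, 1 without induction and 0 at 45 days. Without induction 33 of the 35 cells were in cluster 24, 1 in cluster 17 and 1 in cluster 26. The 10 genes made up 17.5% of all UMIs in the 33 cells of cluster 24 at 15 days and 3.09% in the 82 cells of cluster 26, and 4.53% in the 33 cells of cluster 24 without induction. Depth also differed, with median UMIs per cell of 5496, 19196 and 2516 in these 3 sets, against 7230 in the other cells at 15 days and 5142 in the other cells without induction.

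In the 15 day cells of cluster 24 albumin came with the full set except CST1. ALB ranged between 0 and 12.1% of a cell's UMIs with a median of 2.65%, and was at 1% or more in 20 of the 33 cells and at 0 in 7. AFP ranged between 0.285% and 17.1% with a median of 5.76%. AFP was present in all 33 cells, and it was the most abundant of the 10 genes in 18 of them, against 8 for ALB. In the uninduced cells of cluster 24, ALB had 5 UMIs in all, 1 in each of 5 cells, while AFP ranged between 0.164% and 7.06% with a median of 0.632%. Cluster 24 at 15 days therefore stood 2194-fold above cluster 24 without induction in ALB (940 to 6758) and 3.63-fold above it in AFP (3.52 to 3.75). ALB was at 32027 CPM (31553 to 32507) in the 15 day cells and at 14.6 CPM (4.74 to 34.1) in the uninduced ones.

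The other members of that set differed by less than ALB between 15 days and no induction, and several by more than AFP. APOA2 was at 15642 CPM in cluster 24 at 15 days and 9768 CPM in cluster 24 without induction, 1.60-fold higher (1.54 to 1.67). APOC3 was at 17694 and 4437 CPM in the same sets, 3.99-fold higher (3.78 to 4.21). AMBP was at 4578 CPM at 15 days and 315 CPM without induction, 14.5-fold higher (11.97 to 17.77). TTR was 3.08-fold (2.86 to 3.32), SERPINA1 4.196-fold (3.97 to 4.44) and AHSG 4.72-fold higher (4.28 to 5.21). ALB and AMBP were thus the pair with the widest gap, and APOA2 had the narrowest. One uninduced cell held 48.9% of that set's AFP UMIs and 77.8% of its AMBP UMIs.

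In cluster 26 TTR, APOA1, APOA2 and AFP led, and ALB and APOC3 were the lowest of the 10 genes. TTR was at 7709 CPM in cluster 24 and 7679 CPM in cluster 26, a ratio of 1.00 (0.969 to 1.04). ALB was at 32027 CPM in cluster 24 and 178 CPM in cluster 26, 180-fold apart (160 to 202), and 1 cell held 243 of the 294 ALB UMIs of cluster 26. APOC3 was at 17694 CPM in cluster 24 and 131 CPM in cluster 26, 135-fold apart (118 to 155). The neighbouring genes APOC3 and APOA1 thus differed here, since APOA1 was at 22704 CPM in cluster 24 and 7546 CPM in cluster 26, 3.01-fold apart (2.93 to 3.08). The inhibitors and AHSG lay between these extremes. SERPINA1 was at 17626 CPM in cluster 24 and 2758 CPM in cluster 26, AMBP at 4578 and 382 CPM, and AHSG at 6407 and 209.6 CPM. TTR was the most abundant of the 10 genes in 33 of the 82 cells, APOA1 in 23, AFP in 11 and APOA2 in 9.

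**Figure D3:**
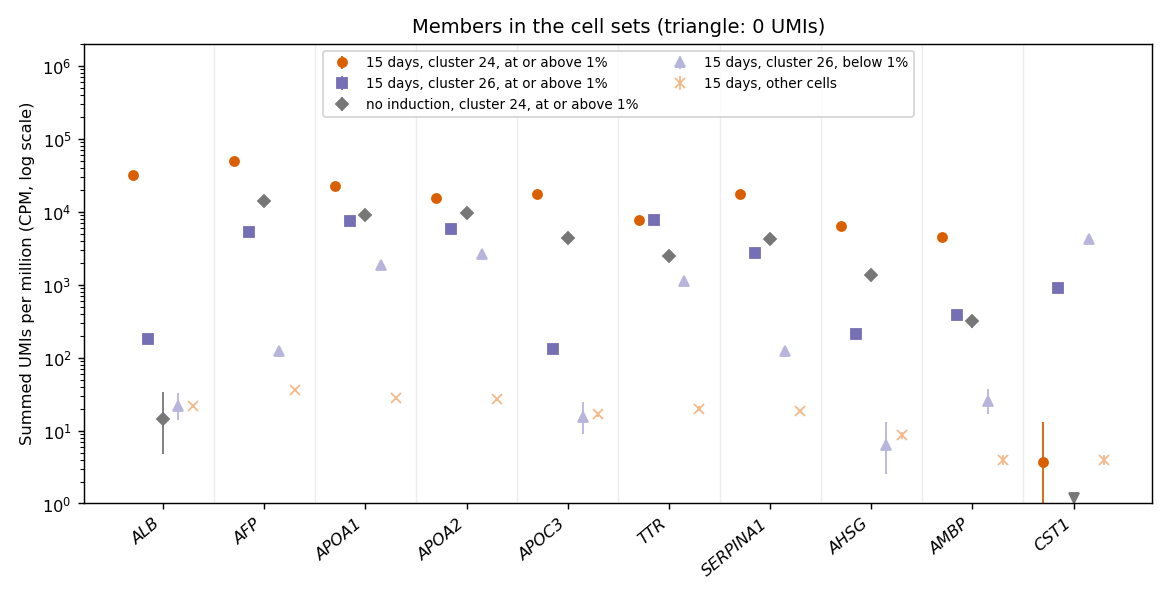
Summed level in CPM (log scale) of each gene in the cells at or above 1% of cluster 24 at 15 days (33 cells), cluster 26 at 15 days (82) and cluster 24 without induction (33), in the cells of cluster 26 below 1% (71) and in the other 15 day cells (4828); bars are exact 95% Poisson intervals and the triangle marks 0 UMIs. TTR has the same level in both 15 day sets, ALB and APOC3 are 180-fold and 135-fold apart, and CST1 is highest in the cells of cluster 26 below 1%.

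CST1 was found mostly in cluster 26, and its pattern differed from that of the other genes. Of its 6270 UMIs at 15 days, 6104 (97.4%) were in cluster 26, 5 in cluster 24 and 161 elsewhere. Within cluster 26 it was higher in the 71 cells below the limit, at 4203 CPM, than in the 82 cells at or above it, at 897 CPM (4.69-fold, 4.42 to 4.97). AFP went the other way, at 123 CPM in the cells below the limit and 5315 CPM in those at or above it, a direction that the limit itself favours because AFP is 1 of its 5 genes. CST1 and AFP were rarely high in the same cell: of the 153 cells of cluster 26, 65 had CST1 at 0.1% of UMIs or more, 34 had AFP at that level and 2 had both. That level was chosen after the values were seen. Over all 153 cells, which share 1 library, the Spearman correlation of the percentages of CST1 and AFP was -0.56 and the Pearson correlation -0.20. CST4, the neighbouring cystatin, was at 135.7 CPM in the 82 cells and at 0 in cluster 24. Without induction the 14 CST1 UMIs lay in 14 cells, all outside both clusters.

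**Figure D4:**
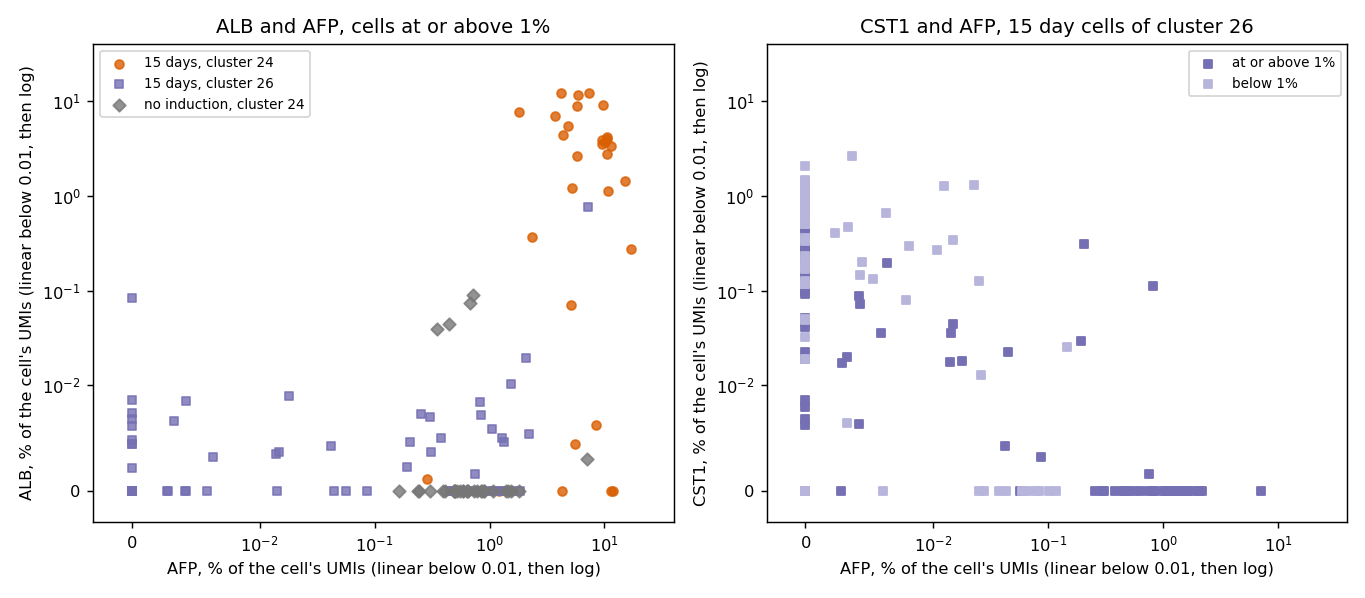
Percentage of a cell's UMIs in ALB against AFP for the cells at or above 1% (left panel: 33 cells of cluster 24 at 15 days, 82 of cluster 26 at 15 days, 33 of cluster 24 without induction), and in CST1 against AFP for the 153 cells of cluster 26 at 15 days (right panel); axes are linear below 0.01 and logarithmic above. ALB reaches 1% in 20 cells of cluster 24 at 15 days, and 2 cells of cluster 26 have both CST1 and AFP at 0.1% or more.

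Within cluster 24 at 15 days the genes did not vary as a block. Over the 33 cells the Spearman correlation of the percentages was 0.70 for ALB and SERPINA1 and 0.74 for TTR and APOA2, but 0.14 for ALB and AFP and -0.04 for ALB and APOA1; the cells share 1 library and differ widely in depth. When the 33 cells were split at 1% ALB, a split made after the values were seen, AMBP had a median of 0.668% of UMIs in the 20 cells with more ALB and 0.0180% in the 13 with less. AFP was abundant in both, with medians of 8.39% and 4.26%. APOA1 did not follow the split, at medians of 2.15% and 2.89%. Of the cells with ALB at 1% or more and below AFP, 6 had under 3000 UMIs and under 1% mitochondrial UMIs. Their ALB lay between 3.35% and 4.19% and their AFP between 9.46% and 11.35%, but they were picked after the values were seen. In the 10 cells under 3000 UMIs and under 2% mitochondrial UMIs, with no limit on ALB, the range was wider. There ALB lay between 0 and 12.01% and AFP between 1.21% and 11.35%.

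At 45 days cluster 24 held 20 cells, and SERPINA1 led there. SERPINA1 had 307 UMIs in 11 of the cells (1185 CPM), 97.2% of its UMIs in that library, and was the most abundant of the 10 genes in 10 cells. AFP had 82 UMIs, of which 68 were in the 1 cell at or above the limit. That cell had 3482 UMIs, with 36 of APOA2, 19 of APOC3, 10 of APOA1, 6 of SERPINA1 and none of ALB, TTR, AHSG, AMBP or CST1. Without induction the 62 cells of cluster 24 below the limit also held SERPINA1, at 997 CPM.

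The rest of the liver programme was described with lists of genes chosen with earlier results known, against the cells of the same library below the limit and outside both clusters. The clusters were built from variable genes without setting the listed ones aside, so these are descriptions. A listed gene often passed the floor of 50 CPM only through the side where it was higher, which favours such a call in advance. The counts of listed genes higher or lower, here and in the next paragraphs, are therefore no support. In cluster 24 at 15 days 8.94% of 3545 genes (317) stood 4-fold or more above those cells and 14.4% as far below. Of 41 other plasma protein genes, 32 of the 33 that reached 50 CPM were higher, with a median log2 ratio of 5.09 against -0.63 for all genes. They included FGB, a fibrinogen chain, at 3035 CPM, RBP4, the retinol carrier, at 2953 CPM, APOB, the core protein of low-density lipoprotein, at 1349 CPM, and TF, the iron carrier, at 1221 CPM. All 13 of the enzymes and transporters that reached the floor were higher, of 34 measured, among them the asialoglycoprotein receptor gene ASGR1 at 688 CPM and the fetal cytochrome CYP3A7 at 134 CPM. The adult cytochromes CYP3A4, CYP2E1 and CYP2C8 were at 0. Of 18 hepatic transcription factors 6 of 8 were higher, with CEBPA at 252 CPM, FOXA3 at 156 CPM and HNF4A at 58.8 CPM.

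Cluster 26 held the transcription factors with fewer of the enzymes. In its 82 cells 6.66% of 3708 genes (247) stood 4-fold or more above the other cells and 7.39% as far below. Of the transcription factors 8 of 11 were higher, with FOXA2 at 163.5 CPM, FOXA3 at 115 CPM and HNF4A at 53.3 CPM. Of other plasma proteins 17 of 19 were higher, led after APOE and APOC1 by VTN, the adhesion protein vitronectin, at 922 CPM. Of the 34 enzymes and transporters 2 of 3 that reached the floor were higher and 13 were at 0, CYP3A7 among them. TF was at 47.85 CPM and APOB at 176 CPM, far under their levels in cluster 24. Of 12 yolk sac and visceral endoderm genes, some of which are also on the other lists, 4 of 5 that reached the floor were higher in cluster 26, among them FOXA2, APOA4 at 173 CPM and GATA6, an endoderm factor, at 62.4 CPM. SOX17 reached the floor without being 4-fold higher, and TTPA and CITED1 were at 0. By the looser rule used to name clusters (at least 2-fold up and in 10% of cells), 9 of the 12 were up in cluster 26 as a whole. By that rule 13 of 14 hepatocyte markers were up in cluster 24 as a whole. At 4-fold, the yolk sac counts in cluster 24 were 5 of 5 at 15 days and 4 of 4 without induction. In the cells of cluster 26 below the limit, some genes named after their values were seen were higher than in those at or above it: LINC00458 at 1327 and 119 CPM, the retinoic acid hydroxylase CYP26A1 at 642 and 91.5 CPM, the Nodal co-receptor TDGF1 at 246 and 20.6 CPM and the endoderm factor EOMES at 108 and 24.2 CPM. Others looked at in the same way did not follow. LIN28A was lower, at 193.6 and 235.6 CPM, and HHEX was close, at 298 and 263.5 CPM. POU5F1 and NANOG had at most 1 UMI in either group of cells.

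The uninduced cells of cluster 24 combined plasma proteins with some intestinal genes, and fewer of these were high in the 15 day sets. Here 9.27% of 3237 genes (300) stood 4-fold or more above the other cells and 7.45% as far below. Of other plasma proteins 18 of 21 were higher, with APOA4 at 2365 CPM and APOB at 1600 CPM, while TF was at 17.5 CPM. Of 15 intestinal genes 7 of 7 that reached the floor were higher, and 5 were at 0 (CDX1, MUC2, KRT20, OLFM4 and REG4). Those higher included GNRH2 at 2543 CPM, the trypsin inhibitor SPINK1 at 444 CPM and the intestinal factor CDX2 at 146 CPM. MLN, the hormone motilin, was also high, but 936 of its 937 UMIs came from 1 cell. GNRH2 and SPINK1 were high in cluster 24 at 15 days too, at 3922 and 730 CPM, with 1606 of the 2133 GNRH2 UMIs there in 1 cell. All 4 intestinal genes that reached the floor in that set were higher, but the same 5 were at 0. Of its 16 CDX2 UMIs, 10 lay in 1 cell. In cluster 26 all 3 that reached the floor were higher, but 6 of the 15 were at 0 and CDX2 was at 12.7 CPM. Of the 292 GNRH2 UMIs in cluster 26, 117 lay in 1 cell. In the uninduced set, of 34 enzymes and transporters 6 of 7 were higher and 11 were at 0, CYP3A7 among them.

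Most markers of endothelial, mural, mesenchymal and neuron cells were low in all 3 sets. In cluster 24 at 15 days 7 of 8 endothelial, 6 of 6 mural, 10 of 11 mesenchymal and 13 of 13 neuron markers were at least 4-fold lower than in the other cells. In cluster 26 these counts were 7 of 8, 4 of 6, 9 of 11 and 12 of 13. Without induction they were 7 of 8, 5 of 7, 10 of 11 and 2 of 2. FN1, on the mesenchymal list, encodes fibronectin, which hepatocytes also secrete into plasma, and was higher: it was at 2105 CPM in cluster 24 and 6481 CPM in cluster 26 at 15 days, against 298 CPM in the other cells, and at 2514 CPM without induction, against 874 CPM. Of 10 basal epithelium markers 3 could be counted in each set, with DSP, the desmosome protein desmoplakin, higher and 1 lower; DSP was at 491 CPM in cluster 26, against 47.3 CPM in the other cells. Cycling markers were neither 4-fold higher nor lower in cluster 26 (0 of 8 each way) and 3 of 4 were lower in cluster 24 at 15 days. Of 8 haemoglobin and erythroid genes 7 were at 0 in cluster 24 at 15 days and 8 in the uninduced set.

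The genes most like the 10 genes across 75 sums of a library and a cluster (at least 20 cells each, 8166 genes, Pearson correlation of log2 levels with 5 CPM added) were GNRH2 at 0.88, APOA4 at 0.84, FGB at 0.82, the fatty acid binding gene FABP1 at 0.81 and VTN at 0.79. The sums share the 3 libraries, and the clustering could use these same genes. CST1 by itself was most like LINC00458 at 0.96, CST4 at 0.94, PLSCR2 at 0.94, LINC02387 at 0.92 and TDGF1 at 0.90.

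Outside clusters 24 and 26 the 10 genes were present at a low level in nearly every kind of cell, and that level went with the library. Whether this low level is free RNA or expression was not tested. A mean cell held between 1.34 and 2.16 UMIs of the 10 genes over 21 clusters at 15 days, although the median depth of these clusters differed 12.85-fold. Without induction it held between 0.487 and 0.710 UMIs over 24 clusters, with depths 6.64-fold apart, and at 45 days between 0 and 0.15 over 26 clusters. At 15 days and without induction the count per cell was thus nearly flat, while the level in CPM varied 7.67-fold between clusters at 15 days. The neuron-like clusters 19 and 22 show this: at 15 days they held 1.61 and 2.16 UMIs per cell at median depths of 1995 and 25635 UMIs, which gives 577 and 75.3 CPM. At 45 days the same clusters held 0.02985 and 0.15 UMIs per cell at median depths of 3397 and 20916 UMIs. That gives 8.035 and 6.753 CPM, from 201 and 100 cells, so the count differed between these clusters in that library. It rests on few UMIs, since all clusters but 24 held 270 of the 10 genes at 45 days, and no interval was computed.

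**Figure D5:**
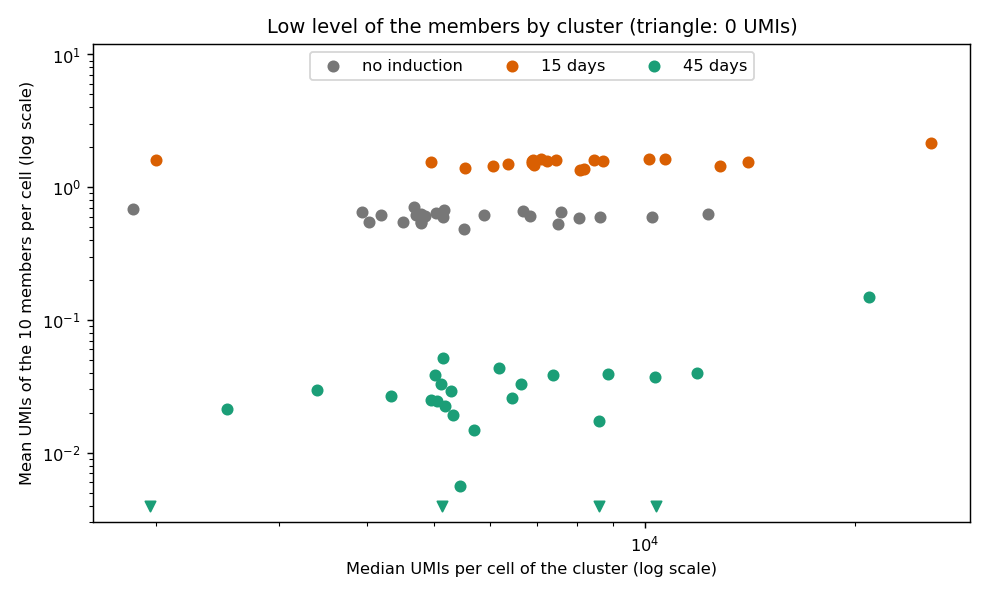
Mean UMIs of the 10 genes per cell (log scale) against the median UMIs per cell (log scale) for each cluster other than 24 and 26, over cells below 1%; each point is 1 cluster of at least 20 cells without induction (24 clusters), at 15 days (21) or at 45 days (26), and triangles mark 0 UMIs. The points form a band between 1.34 and 2.16 UMIs at 15 days and between 0.487 and 0.710 without induction, and spread between 0 and 0.15 at 45 days.

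The share of cells with these genes also differed by library within the named kinds of cell. With every cell thinned to 2000 UMIs, at least 1 UMI of the 10 genes was found in 17.8% of endothelial-like cells without induction (14.2 to 21.9), 40.1% at 15 days (34.5 to 45.8) and 1.06% at 45 days (0.129 to 3.79). Without thinning these shares were 46.3%, 77.7% and 2.59%, at median depths of 6604, 8368 and 5578 UMIs, and thinning left out 57, 25 and 44 shallower cells. Neuron-like cells gave 1.28% at 45 days and 31.8% at 15 days after thinning, and 6.31% and 82.9% before it, at median depths of 5034 and 9264 UMIs. Mural-like cells gave 31.6% at 15 days, against 16.2% without induction. Over all clusters the thinned share had a median of 18.4% without induction, 34.5% at 15 days and 0.899% at 45 days, with ranges of 8.20 to 26.6%, 18.3 to 41.3% and 0 to 2.82%.

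The low level at 15 days was close to the cells at or above the limit in its shares of some of the genes, such as ALB and TTR, and further off in others. ALB was 11.85% of the low-level UMIs of the 10 genes and 12.1% of those in the high cells, and TTR 10.9% and 11.55%. SERPINA1 (10.02% and 9.685%) and AMBP (2.154% and 2.137%) were close too. AFP was 19.7% of the low-level UMIs and 24.7% of those in the high cells. In the same order AHSG was 4.71% and 2.62%, CST1 2.14% and 1.015%, and APOC3 9.04% and 6.74%. APOA1 was 15% and 16.99%, and APOA2 14.5% and 12.37%. Set against the high cells, each gene's low level was between 0.2202% (AFP) and 0.584% (CST1) of its level there. For CST1 neither side held most of its RNA: 4624 of its 6270 UMIs at 15 days lay in cells of cluster 26 below the limit. Those cells are left out of this comparison, so the CST1 shares and ratio do not describe the cells richest in it. Outside both clusters ALB had 891 UMIs at 15 days, in 784 cells, and 11 UMIs without induction, in 11 cells.

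Without induction the make-up also differed, and the share of TTR differed by the most percentage points. TTR was 33.9% of the low-level UMIs of the 10 genes but 5.54% of those in the 35 high cells. Other genes differed too: AFP was 19.5% of the low-level UMIs and 31.1% of those in the high cells, APOA2 10.9% and 20.6%, SERPINA1 4.42% and 8.84%, and AMBP 0.103% and 0.660%. ALB had 11 UMIs at the low level and 5 in the high cells. TTR was found in all 21 clusters with the most UMIs, at 13.7 to 49.0 CPM. Among the 66 barcodes at or above the limit that the cell filter had removed, TTR was 29.5% of the UMIs of the 10 genes. Of its 1670 UMIs there, 1586 were in barcodes with over 20% mitochondrial UMIs and 908 in 2 of them. Their part in the low level was not tested.

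At 45 days the low level was close to nothing and of yet another make-up. APOA1 had 164 UMIs outside cluster 24 (3.03 CPM), 60.7% of all UMIs of the 10 genes there, and APOA2 had 65. AFP had 6, TTR 5 and ALB 9 UMIs in 8880 cells, while AHSG and CST1 had none. TTR had the widest gap of the low levels between these libraries, with 11 UMIs at 45 days in the cells below the limit and 1754 without induction, 173-fold lower (96.3 to 347). ALB had 10 UMIs at 45 days and 14 without induction, 1.52-fold lower with an interval that includes no difference (0.627 to 3.82).

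In the cells below the limit 4 of the 10 genes reached the floor of 50 CPM at 15 days, APOA1, APOA2, TTR and CST1. At 15 days against no induction 2 of these 4 were at least 4-fold higher, APOA2 and CST1, where 1.32% of 3096 genes were higher and 0.42% lower, and in cluster 26 they were at 2632 and 4203 CPM in these cells. ALB was under the floor, at 21.8 CPM at 15 days and 0.279 CPM without induction, 78.2-fold higher (46.4 to 144). At 45 days against 15 days all 4 were lower, where 0.162% of 3088 genes were lower and 0.0324% higher. Under the floor, AFP, ALB and APOC3 were also over 4-fold lower with 5 CPM added, at log2 ratios of -3.03, -2.37 and -2.05. At 45 days against no induction none was, since none of the 10 reached 50 CPM in these cells, where 0.241% of 2908 genes were lower and 0.481% higher. The sum of the 10 genes in these cells was 3.45-fold higher at 15 days than without induction (3.35 to 3.55), against 8.11-fold over all cells (8.002 to 8.226). Much of that sum at 15 days lay in the 71 cells of cluster 26 below the limit, where the 10 genes were 1.012% of UMIs. Outside clusters 24 and 26 the cells below the limit had 0.0184% of UMIs in the 10 genes at 15 days and 0.009765% without induction.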

How the data were processed

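Single cells were profiled by Chromium Single Cell 3′ v3 chemistry, per the labels' protocols. The deposited values are raw UMI counts for each gene in each barcode, made by the authors with Cell Ranger 3.0.0 on GRCh38 per the submitters' processing notes; the matrix headers name software version 3.0.1, and the annotation used is not given in the sources used here. The other deposited files hold gene and barcode names. Doublets were removed per library as the cells with the most simulated doublets among 30 neighbours, at 0.8% of cells per 1000 barcodes. Clustering used totals of 10000, 2000 variable genes, 30 principal components, 15 neighbours and Leiden resolution 1.0 (leidenalg 0.10.2, scikit-learn 1.9.0, scipy 1.17.1, Python 3.11.15), without integration; cluster names need 3 markers at least 2-fold up and in 10% of cells, a scoring set after the data were seen. The genes, the lists and the 1% limit were chosen with earlier results of these data known. Genes named are the 10, genes of the lists, those most like the 10 or CST1, and others said to be chosen after their values were seen. Genes named from a list are examples that no fixed rule chose, and higher ones can be unnamed. XBP1, for instance, was the highest hepatic transcription factor in cluster 24 at 15 days, at 314 CPM. The fold counts were tested on simulated data. RNA set free during dissociation can be captured with any cell, which raises low counts.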

Additional observations from a re-analysis of the deposited data

Results flagged for a closer look

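A signal of the 5 genes was also seen in barcodes that the cell filter had removed, and apart from their TTR share without induction they were not used above. At least 1% of UMIs were in ALB, AFP, APOA1, APOA2 and TTR in 26 of 659 removed barcodes at 15 days (3.95%, 2.59 to 5.73) and in 66 of 1374 without induction (4.80%, 3.73 to 6.07), against 0 of 1121 at 45 days, which allows up to 0.268%. The 66 uninduced barcodes had a median of 811.5 UMIs; 45 had under 1000 UMIs and 30 had over 20% mitochondrial UMIs. AFP was 47.3% of the UMIs of the 10 genes in the 26 barcodes at 15 days and 43.2% in the 66 without induction, and ALB had 251 and 2 UMIs there. Of 120 passing cells at or above the limit at 15 days, 4 were removed as likely doublets.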

How the results depend on the processing

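No paired analysis was possible because each group has 1 library. The share of cells at or above the limit without induction (0.425%) was 0.987% over every deposited barcode and 0.668%, 0.194% and 0.0608% at limits of 0.5%, 2% and 5%. At 15 days (2.28%) it was 3.17%, 1.40% and 0.689% at those limits and 2.92% when all 10 genes were summed, and at 45 days it was 0 at 5%. The sum of the 10 genes without induction (455 CPM) was 516.6 CPM over every barcode and 405.9 CPM with likely doublets kept; at 15 days (3688 CPM) it was 3521 and 3524 CPM, and 3394 CPM when scaled by the median of ratios. In the cells below the limit it was, without induction (132 CPM), 150.2 CPM over every barcode, 124.3 CPM with doublets and 117.2, 183.2 and 319 CPM at limits of 0.5%, 2% and 5%. At 15 days (455 CPM) it was 445.7, 433.7, 293.5, 784.9 and 1515 CPM in the same order and 419 CPM by the median of ratios, and at 45 days (12.3 CPM) it was 14.82 CPM at 5%. With a floor of 20 CPM and with no floor, the genes at least 4-fold apart numbered 43 and 47 in place of 26 at 45 days against no induction, 116 and 125 in place of 62 at 15 days against no induction, and 29 and 31 in place of 18 at 45 days against 15 days, where leaving out the cells at or above the limit gave 6. Of 120 log2 ratios of the 10 genes under alternatives added after the data were seen, 44 moved by over 1.5 times and none past 4-fold changed sign. A count of 0 allows up to 0.0551 to 0.0669 CPM in a library, so lower levels could not be seen.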

Other observations

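The cells of cluster 24 below the limit, which enter few of the comparisons above, held intestinal RNA, with the genes chosen after their values were seen. GNRH2 was at 804 CPM in the 63 cells at 15 days and at 3788 CPM in the 62 cells without induction, and at 1873 CPM in the 20 cells of cluster 24 at 45 days, where 465 of 485 UMIs came from 1 cell. CDX2, a transcription factor of the intestine, was at 57.5 CPM in the cells at 15 days and at 168 CPM in those without induction. Single cells of cluster 24 also carried hormone genes: 131 INS UMIs and 139 CHGA UMIs at 15 days each came from 1 cell, and 1074 CHGA UMIs without induction came from 1 cell.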
